A study of Mus musculus with 36 samples.

Results

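The late dark step compared liver transcripts of mice killed at ZT22 with those of mice killed at ZT18, where ZT (zeitgeber time) counts hours from lights on. It used 12 of the 36 bulk RNA-seq libraries of the series, all 6 at ZT22 and all 6 at ZT18, chosen by the sampling time in their titles. At each time 3 libraries came from THRB WT and 3 from THRB KO mice, and genotype was a covariate. THRB WT mice were heterozygous controls (THRB+/-) and THRB KO mice were THRB-/-, so every animal carried at least 1 altered Thrb allele and no unaltered (THRB+/+) animal was compared. The altered allele impairs DNA binding by both isoforms of thyroid hormone receptor beta in the whole animal. All mice were male, 2 to 3 months old, on a C57Bl/6NCrl background, group-housed in a cycle of 12 h light and 12 h dark, and fed chow ad libitum. Each library came from 1 mouse and is named here by genotype, time and a letter (a, b or c). Of 54532 genes in the table, 17994 reached 100 counts in the sum of all 36 libraries and were tested.

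In the liver clock, BMAL1 (encoded by Arntl) with CLOCK or NPAS2 drives transcription from E-box sequences, among others of the Per, Cry, Nr1d1, Nr1d2, Ciart and Dbp genes. PER and CRY proteins feed back on this complex, while the REV-ERB receptors (Nr1d1, Nr1d2) and ROR receptors act in opposite directions on Arntl and Npas2. Mice feed mostly in the dark, and the hours before dawn lead from the feeding phase into the light phase, when bile acid, glycogen and lipid handling in the liver change.

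Library totals ran from 29063273 to 34651267 counts at ZT18 and from 30613456 to 37534917 at ZT22. The mean log2 total was 24.9 at ZT18 and 25.0 at ZT22 (exact permutation test within genotype over 400 arrangements, two-sided, p = 0.195). The mitochondrial share and the share of the 10 most counted genes gave p = 0.81 and p = 0.61 by the same exact test. Hepatocyte markers such as Alb and Hnf4a summed to 83407-97526 CPM (counts scaled to a common library size) at ZT18 and 85385-101620 at ZT22. Of 11 marker lists, 10 had tested members, and no member of any of them passed the test. The summed Kupffer cell list was highest in WT mouse b at ZT18, at 710 CPM, against 248-440 over the other 11 libraries. All 8 endothelial markers had positive log2 fold changes, with sums of 148-208 CPM at ZT18 and 186-238 at ZT22, and 6 of them had an unadjusted p under 0.05. All 6 tested erythroid markers had negative log2 fold changes, with a median of -0.40 and sums of 232-561 CPM at ZT18 and 145-452 at ZT22. Of all 17994 tested genes, 8771 had positive and 9223 negative fold changes, and 2410 had an unadjusted p under 0.05 (edgeR). The part of endothelial and erythroid cells in the results below was not tested. Thrb lay between 26.2 and 32.5 CPM in all 12 libraries, and these gene-level counts were not used as a check of the knockout labels.

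From ZT18 to ZT22, 141 of 17994 genes (0.784%) passed an adjusted p of 0.05 in edgeR's quasi-likelihood test, of which 90 rose (0.5%) and 51 fell (0.283%). Clock activators and a set of metabolic genes were among the genes that rose, and clock repressors, clock-controlled transcription factors and cytosolic chaperones were among those that fell. The median log2 fold change was 0.56 for the 90 genes that rose and -0.67 for the 51 that fell, and 37 genes changed more than 2-fold, 24 upwards and 13 downwards. Over all tested genes the median was -0.01. Of the 141 genes, 131 are annotated as protein coding. In bulk liver, fewer cells of a type and less RNA per cell cannot be told apart.

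The ranges of the 6 ZT22 and the 6 ZT18 libraries did not overlap for 99 of the 141 genes, 58 of them higher and 41 lower at ZT22. Over all 17994 genes, 256 (1.42%) had ranges that did not overlap, 155 (0.861%) with all ZT22 libraries higher and 101 (0.561%) with all lower. Without adjustment 2410 genes had a p under 0.05. The number past the adjusted threshold depended on single mice. It was 57 without WT mouse a at ZT18, 56 and 60 without WT mice b and c at ZT22, 46 and 77 without KO mice a and b at ZT18, and 89 without KO mouse b at ZT22. Without all mice of letter a, b or c it was 25, 0 and 74, and the 0 calls without letter b stood beside 1979 genes at an unadjusted p under 0.05. WT and KO mice with the same letter and time deviated together, with correlations of 0.15 to 0.293 over genes. With such pairs summed to 1 unit, 3 genes passed (edgeR), and with their correlation estimated at 0.172 in limma-voom 75 passed. Both of these fits were chosen after the data had been seen. Of the 48 genes past the threshold that are named here by rule, Wee1 and Grk5 passed with summed pairs and 34 with the estimated correlation.

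The same test run at each of the 6 steps of 4 h gave the lowest number of genes for ZT18 to ZT22. The step before it, ZT14 to ZT18, had 724 genes (4.02%), 379 higher and 345 lower at the later time. The step after it, ZT22 to ZT2, had 197 (1.09%), 74 higher and 123 lower. The largest number was 2816 between ZT10 and ZT14. Neighbouring steps share 6 libraries, and the difference in number between steps was not tested.

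**Figure D1:**
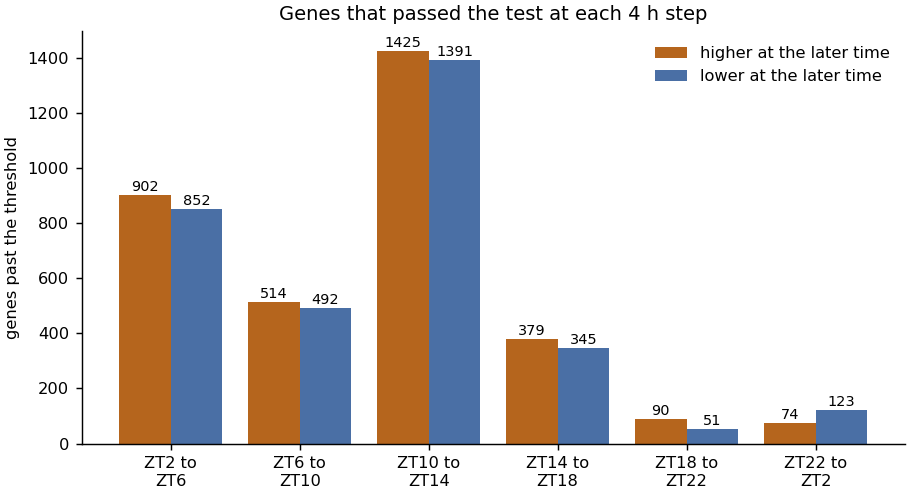
Bars give the number of genes past an adjusted p of 0.05 (edgeR, 17994 genes tested) at each 4 h step, split into genes higher and lower at the later time. The ZT18 to ZT22 step has 90 higher and 51 lower genes, the lowest sum of the 6 steps.

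Among the clock activators, 3 of 6 members rose and none fell, 50% against the 0.784% of all tested genes. The median log2 fold change of the list was 0.20. These 3 were the genes of the BMAL1 complex. Arntl measured 14.6-23.6 CPM (median 17.6) at ZT18 and 26.5-33.3 CPM (median 30.7) at ZT22, 1.68-fold higher, with a log2 fold change of 0.75 ± 0.11 (SE) and an adjusted p of 0.00652 (edgeR). No ZT22 library was as low as the highest ZT18 library.

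Npas2, the paralogue of Clock, had a mean of 0.566 CPM at ZT18, above its lowest mean of 0.0443 CPM at ZT14. It rose most of all named genes. Its ZT18 levels were 0.105, 0.0271 and 2.50 CPM in WT mice a, b and c, and 0.192, 0.360 and 0.206 CPM in KO mice. At ZT22 they were 7.10, 11.3 and 11.0 CPM in WT and 2.79, 7.42 and 9.63 CPM in KO mice. WT mouse c at ZT18 and KO mouse a at ZT22 lay close to each other between the remaining libraries, and the groups still did not overlap. The log2 fold change was 3.97 ± 0.62 (SE, edgeR, adjusted p = 0.00928), and without WT mouse c at ZT18 it was 5.47 (adjusted p = 2.98e-04). Clock itself moved little, from 28.3-34.5 CPM to 36.5-42.1 CPM, again without overlap, with a log2 fold change of 0.29 ± 0.06 (SE, edgeR, adjusted p = 0.0456). Its call was lost with the estimated correlation (limma-voom, adjusted p = 0.0916) and stood in only 2 of 12 fits without a single library. Rora, encoding a ROR receptor, at 0.10 on the log2 scale, and Arntl2, under 1 CPM in every library, did not pass the test.

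Of 10 clock repressors, 4 fell and none rose (40% against the 0.784% of all genes), with a list median of -0.91. Ciart encodes CHRONO, which binds BMAL1 and represses its complex. Its CPM ran from 2.96 to 6.52 (median 4.59) at ZT18 and from 0.995 to 2.64 (median 1.37) at ZT22, and it fell by 1.61 ± 0.26 (SE) on the log2 scale (edgeR, adjusted p = 0.0108). KO mouse c at ZT22 and WT mouse c at ZT18 bounded a narrow gap between the groups. Ciart lies opposite C920021L13Rik, and reads of the 2 genes cannot be told apart in a library without strand.

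Per3 fell from 13.5-27.9 CPM (median 21.9) to 3.89-10.1 CPM (median 8.02), a log2 fold change of -1.44 ± 0.21 (SE, edgeR, adjusted p = 0.00667). Per2 fell from 59.7-113 CPM (median 81.0) to 24.1-58.7 CPM (median 35.4), or -1.15 ± 0.21 (SE, edgeR, adjusted p = 0.0218). For both the ranges did not overlap, although for Per2 the highest ZT22 library (KO mouse c) came within 1 CPM of the lowest at ZT18 (WT mouse c). Nr1d2, encoding REV-ERB beta, fell by 1.43 ± 0.23 (SE) on the log2 scale (edgeR, adjusted p = 0.0106). WT mouse c at ZT18, at 10.4 CPM, lay below KO mouse a at ZT22, at 11.3 CPM, while the other ZT18 libraries were at 19.4 CPM or more.

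The other repressors did not pass. Per1 had a log2 fold change of -0.91 (edgeR, adjusted p = 0.062) and Nr1d1, encoding REV-ERB alpha, of -0.92 (edgeR, adjusted p = 0.104). Nr1d1 was at 3.06-6.02 CPM at ZT18 and 1.53-4.12 CPM at ZT22, with WT mouse c the highest at ZT22. Per1 and Nr1d1 both passed with the DESeq2 Wald test (adjusted p = 0.00119 and 0.00799) and without a filter on low counts (edgeR, adjusted p = 0.0035 and 0.0257). Cry1 had the only positive fold change of the list, 0.32 (edgeR, adjusted p = 0.196). Cry2, Bhlhe40 and Bhlhe41, the last 2 encoding the DEC repressors, had values of -0.22, -0.18 and -0.49.

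Of 9 clock output factors, 5 fell and none rose (55.6% against the 0.784% of all genes), with a median of -0.80. Dbp and Tef encode PAR bZIP factors, which activate genes through D-box sequences. Dbp fell from 4.64-10.7 CPM (median 8.12) to 1.60-3.92 CPM (median 2.80), a log2 fold change of -1.44 ± 0.21 (SE, edgeR, adjusted p = 0.00715). Tef fell from 88.0-135 CPM (median 126) to 44.5-85.6 CPM (median 73.2), or -0.80 ± 0.13 (SE, edgeR, adjusted p = 0.0106). WT mouse c gave the lowest value of its time for both genes at ZT18 and at ZT22. Dbp and Tef each overlap a gene on the opposite strand (Sphk2 and Gm17597). The third PAR bZIP gene, Hlf, had -0.14, and their repressor Nfil3 had 0.14, neither past the test.

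Wee1, whose kinase delays entry into mitosis, was at 11.0-17.1 CPM at ZT18 and 4.74-8.46 CPM at ZT22, and fell 2.02-fold (log2 fold change -1.01 ± 0.14, SE, edgeR, adjusted p = 0.00552). Noct, encoding nocturnin, fell 2.36-fold, from 27.5-49.3 CPM to 11.3-23.4 CPM (edgeR, adjusted p = 0.00865). Usp2, encoding a ubiquitin-specific protease, fell 1.82-fold (edgeR, adjusted p = 0.0439), a call lost with the estimated correlation (limma-voom, adjusted p = 0.0955). The Usp2 call stood in 2 of 12 fits without a single library. Wee1 overlaps 1600010M07Rik on the opposite strand. The groups were apart for Wee1 and Noct, and overlapped for Usp2, where WT mouse c at ZT18 lay below KO mouse a at ZT22 (20.5 CPM). Por, the electron donor of microsomal P450 enzymes, had -0.70 without passing (edgeR, adjusted p = 0.077). None of the 9 clock kinases and modifiers, such as Csnk1d and Csnk1e, passed, and their fold changes lay between -0.20 and 0.15.

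**Figure D2:**
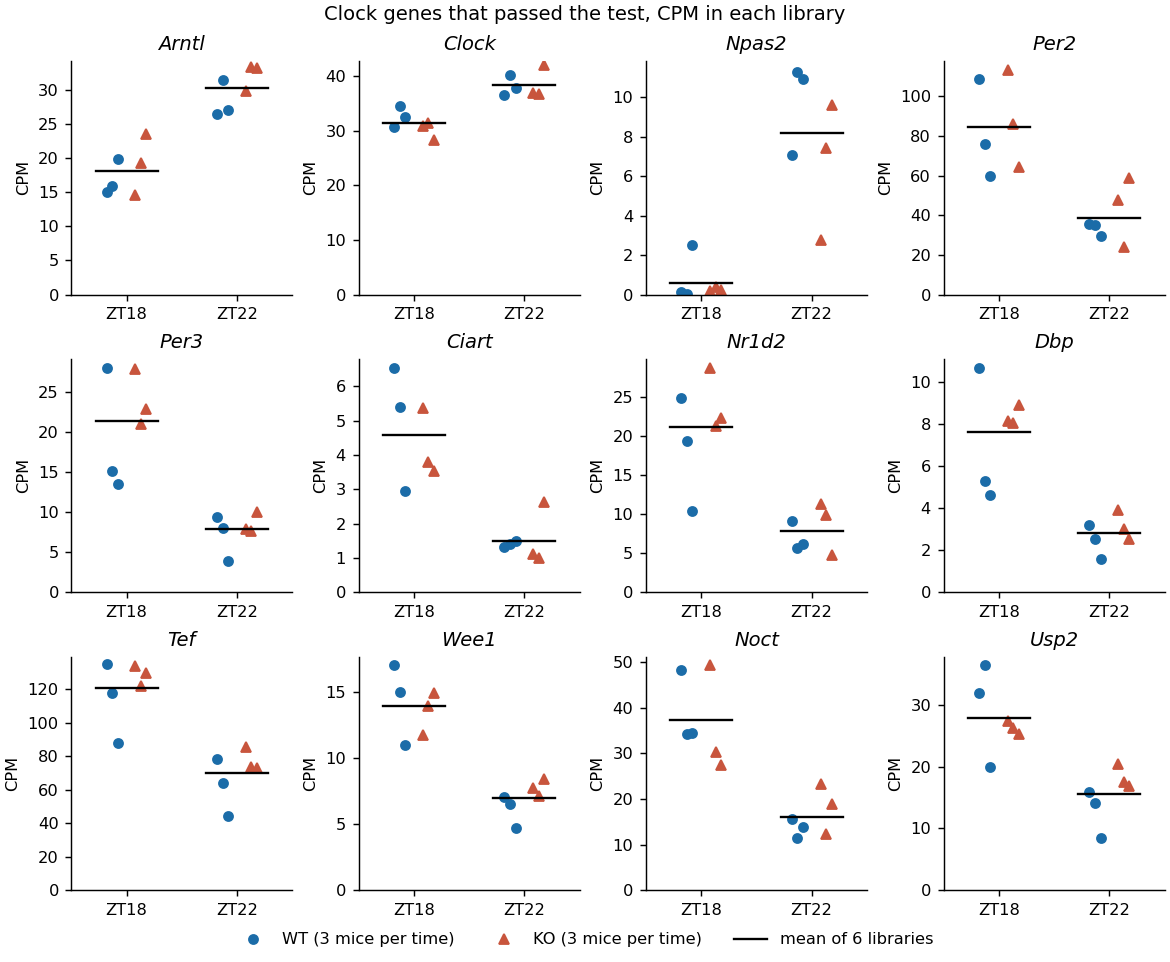
Each panel plots CPM of 1 clock gene that passed the test in the 12 libraries, circles for THRB WT and triangles for THRB KO mice, with a line at the mean of 6 libraries per time. Arntl, Clock and Npas2 sit higher at ZT22 and the other 9 genes lower, and only Nr1d2 and Usp2 have overlapping groups.

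Promoter sequences are shown for genes in which the letters of a clock or stress element were found, so that the element can be read in place. Of the 141 genes, 111 matched RefSeq promoters of GRCm38.p6 by symbol, and the 250 bases before each listed start were searched on both strands. A gene symbol counted once, as a match if any of its starts matched. The E-box CACGTG was present in 7 of 38 genes that fell (18.4%) and 6 of 73 that rose (8.22%). This stood against 9.32% of 11992 tested genes and 6.86% of all 27025 symbols with a promoter, called all promoters below. The D-box letters TTATGNAA were present in 4 of 38 genes that fell (10.5%) and 2 of 73 that rose (2.74%), against 2.59% of tested genes and 3.63% of all promoters. The REV-ERB and ROR element TAGGTCA was present in 5 of 73 genes that rose (6.85%) and in none of the 38 that fell, against 2.24% of tested genes and 2.55% of all promoters. The core of a heat shock element, GAANNTTC, was present in 5 of 38 that fell (13.2%) and 5 of 73 that rose (6.85%), against 6.3% of tested genes and 7.73% of all promoters. The E-box and heat shock letters read the same on both strands, and the 4 motifs were counted separately, so a promoter can hold more than 1. The 6 promoters printed were chosen after the matches were seen, a match is only a match of letters, and no test was made of these shares. In capitals are the matched letters, each sequence running from 5′ to 3′ on the strand of its gene.
Ciart: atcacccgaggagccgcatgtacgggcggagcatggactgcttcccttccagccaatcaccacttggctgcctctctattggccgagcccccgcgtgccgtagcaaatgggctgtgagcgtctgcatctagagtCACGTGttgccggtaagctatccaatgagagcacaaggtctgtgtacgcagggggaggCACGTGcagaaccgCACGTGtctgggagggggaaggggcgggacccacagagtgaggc
Tef: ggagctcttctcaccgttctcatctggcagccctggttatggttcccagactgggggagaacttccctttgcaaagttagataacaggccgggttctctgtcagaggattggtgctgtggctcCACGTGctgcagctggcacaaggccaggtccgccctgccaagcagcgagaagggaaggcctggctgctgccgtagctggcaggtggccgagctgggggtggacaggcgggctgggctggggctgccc
Per3: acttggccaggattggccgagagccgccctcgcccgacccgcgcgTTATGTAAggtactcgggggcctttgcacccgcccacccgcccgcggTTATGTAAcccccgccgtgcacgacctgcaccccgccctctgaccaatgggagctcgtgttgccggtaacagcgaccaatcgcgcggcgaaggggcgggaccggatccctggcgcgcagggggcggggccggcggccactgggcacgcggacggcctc
Noct: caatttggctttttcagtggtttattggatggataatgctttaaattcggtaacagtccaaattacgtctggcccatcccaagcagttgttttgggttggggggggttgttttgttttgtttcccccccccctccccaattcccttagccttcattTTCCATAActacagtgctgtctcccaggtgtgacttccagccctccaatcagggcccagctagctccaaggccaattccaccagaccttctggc
Abcb11: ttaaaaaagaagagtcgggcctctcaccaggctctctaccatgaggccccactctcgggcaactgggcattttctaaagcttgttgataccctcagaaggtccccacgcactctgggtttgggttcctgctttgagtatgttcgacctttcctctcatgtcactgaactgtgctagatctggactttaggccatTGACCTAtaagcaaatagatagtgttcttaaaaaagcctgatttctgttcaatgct
Hspa1b: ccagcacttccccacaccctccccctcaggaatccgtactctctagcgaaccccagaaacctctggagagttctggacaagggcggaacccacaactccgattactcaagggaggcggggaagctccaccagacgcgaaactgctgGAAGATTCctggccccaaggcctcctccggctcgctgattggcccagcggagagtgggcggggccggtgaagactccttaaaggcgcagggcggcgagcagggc

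Ciart (chr3:95882229-95882478, minus strand) held 3 E-boxes, the first beginning 116 and the last 44 bases before the start, and Tef (chr15:81802423-81802672, plus strand) held 1, at 127 bases. The Tef window, which ends at RefSeq's start, lies inside the gene as the deposited table annotates it, and the end of the Ciart window also reaches into the gene of that table. Per3 (chr4:151044666-151044915, minus strand) held the D-box letters 2 times, at 205 and 158 bases. Noct (chr3:51224197-51224446, plus strand) held them once, in reverse orientation. Abcb11 (chr2:69342617-69342866, minus strand), which rose, held the REV-ERB and ROR element in reverse orientation 56 bases before the start. Hspa1b (chr17:34959239-34959488, minus strand), which fell, held the heat shock core 104 bases before the start.

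Most of the other large rises were in genes outside the clock loop. Loxl4, encoding a lysyl oxidase-like enzyme of the extracellular matrix, was at 1.11-2.01 CPM (median 1.33) at ZT18. At ZT22 it measured 5.15, 10.3 and 18.9 CPM in WT and 2.76, 10.2 and 10.9 CPM in KO mice, with a log2 fold change of 2.75 ± 0.37 (SE, edgeR, adjusted p = 0.00552, but 0.0535 with the estimated correlation in limma-voom). All ZT22 libraries were higher, with the a mice of both genotypes lowest among them. Ndrg1, a gene induced by hypoxia and stress, rose 3.22-fold from 4.22-8.04 CPM to 9.72-30.5 CPM (edgeR, adjusted p = 0.00865), again with KO mouse a lowest at ZT22.

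Grk5, a kinase of G protein-coupled receptors, had the lowest adjusted p of all genes (5.9e-04, edgeR). It was at 2.95-4.01 CPM (median 3.75) at ZT18 and 7.17-12.6 CPM (median 9.13) at ZT22, a log2 fold change of 1.37 ± 0.12 (SE). Camk1d, encoding a calcium/calmodulin-dependent kinase, rose 2.50-fold from 5.23-11.6 CPM to 16.1-27.3 CPM (edgeR, adjusted p = 0.00652). Groups did not overlap for either kinase. Grk5 overlaps Zfp950 on the opposite strand.

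Ppard, encoding the nuclear receptor PPAR delta, rose 2.28-fold from 20.8-48.6 CPM to 63.5-99.9 CPM (edgeR, adjusted p = 0.0106). Rnf125, a ubiquitin ligase, rose 2.40-fold from 8.31-27.6 CPM to 29.1-60.0 CPM (edgeR, adjusted p = 0.0303), a call that stood in 6 of 12 fits without a single library. Gas7, a growth arrest-specific gene, rose 2.20-fold from 2.46-4.64 CPM to 6.07-9.98 CPM (edgeR, adjusted p = 0.00667). In all 3 genes the lowest ZT22 library exceeded the highest ZT18 library, by the smallest relative margin in Rnf125. The noncoding genes Gm36041 and Hectd2os rose 2.98-fold and 2.58-fold (edgeR, adjusted p = 0.00552 and 0.0122), the latter at 0.0502 with the estimated correlation in limma-voom. Each overlaps a gene on the opposite strand, Gm48877 and Hectd2, from which reads were not separated.

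The remaining large falls were the chaperone genes Hspa1b and Hspa8, described next, Ung and A930033H14Rik. Ung, a uracil DNA glycosylase of base excision repair, was at 13.9, 9.14 and 6.69 CPM in WT and 14.1, 6.84 and 6.70 CPM in KO mice a, b and c at ZT18, and at 4.03-5.43 CPM at ZT22. The a mice of both genotypes were the highest at ZT18, and the fall of 2.02-fold (edgeR, adjusted p = 0.0404) was -0.65 on the log2 scale without letter a (edgeR, adjusted p = 0.209). Without letter b or c Ung did not pass either, at -1.05 and -1.30 (edgeR, adjusted p = 0.201 and 0.056). With the estimated correlation Ung had an adjusted p of 0.101 (limma-voom). A930033H14Rik, an uncharacterised gene opposite Rhobtb1, fell 2.58-fold, from 2.83-5.47 CPM to 1.13-1.78 CPM (edgeR, adjusted p = 0.00569).

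Heat shock genes encode chaperones and co-chaperones that hold and refold proteins in the cytosol. Of 20 tested members of the heat shock and cold-inducible list, 5 fell and none rose (25.0% against the 0.784% of all genes), 19 had negative fold changes, and the list median was -0.40 beside -0.01 over all tested genes. With the estimated correlation 3 of the 5 passed, Hspa1b and Dnajb1 being lost (limma-voom, adjusted p = 0.129 and 0.0769), and with summed pairs none of the 5 passed (edgeR, adjusted p from 0.166 to 0.296). In 7 members all ZT22 libraries were below all ZT18 libraries, against 101 of all 17994 tested genes (0.561%). Negative fold changes were found in 9223 of those 17994 genes. Hspa8 encodes the constitutive HSC70. Its ZT18 levels were 2576, 1090 and 1408 CPM in WT mice a, b and c, and 2198, 1018 and 1112 CPM in KO mice. At ZT22 they were 490, 681 and 748 CPM in WT and 480, 561 and 772 CPM in KO mice. The a mice were highest of all at ZT18 and lowest at ZT22 in both genotypes. The log2 fold change was -1.33 ± 0.23 (SE, edgeR, adjusted p = 0.0202).

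Hspa1b, an inducible HSP70, showed the same order, with 49.0 and 31.5 CPM in the a mice and 11.0-18.5 CPM in the other 4 ZT18 libraries, against 7.07-9.68 CPM at ZT22. It fell 2.83-fold, with an SE of 0.32 on the log2 scale (edgeR, adjusted p = 0.0456), and its near-identical copy Hspa1a, under which some of its reads may be counted, had -1.12 (edgeR, adjusted p = 0.149). Hsph1, an HSP110 exchange factor, fell from 80.0-145 CPM to 37.3-63.9 CPM, or -0.98 ± 0.15 (SE, edgeR, adjusted p = 0.00928). The J-domain co-chaperones Dnaja1 and Dnajb1 fell by 0.69 and 0.74 on the log2 scale (edgeR, adjusted p = 0.0249 and 0.0384). Groups were apart for all of these except Hspa1a. The cytosolic HSP90 genes Hsp90aa1 and Hsp90ab1 also had ranges that did not overlap, at -0.57 and -0.30, but missed the threshold (edgeR, adjusted p = 0.051 and 0.077).

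The a mice carried part of these differences. Without letter a, the log2 fold changes were -0.74 for Hspa8, -0.75 for Hspa1b, -0.73 for Hsph1, -0.42 for Dnaja1 and -0.42 for Dnajb1, and no member of these 5 passed (edgeR, adjusted p from 0.069 to 0.227). The loss of calls was not particular to letter a. None of the 5 passed without letter b (edgeR, adjusted p from 0.124 to 0.140). Only Hsph1 and Dnaja1 passed without letter c (edgeR, adjusted p = 0.0169 and 0.0392). For each of the 5 the fold change was smaller in size without letter a than without letter b or c. The labels give mice of 1 letter animal numbers close together in both genotypes, and state no litter, batch or day for a letter. The cold-inducible genes did not move as a pair, Cirbp having 0.17 and Rbm3 -0.38 (edgeR, adjusted p = 0.71 and 0.061). Mitochondrial chaperones were nearly level, with Hspd1 at -0.03 and Hspe1 at -0.14.

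In the endoplasmic reticulum list, 1 of 24 members fell (4.17% against the 0.784% of all genes), 22 had negative fold changes and the median was -0.23. Over all 17994 tested genes, 9223 had negative fold changes. Herpud1, a component of the degradation machinery of this compartment, measured 219-526 CPM at ZT18 and 132-224 CPM at ZT22 (log2 fold change -1.02 ± 0.21, SE, edgeR, adjusted p = 0.0457). The ranges overlapped slightly. Without letter a, b or c the value was -0.77, -1.02 and -1.21 (edgeR, adjusted p = 0.0686, 0.194 and 0.0965). The call stood in 3 of 12 fits without a single library. With the estimated correlation this only call of the list was lost (limma-voom, adjusted p = 0.0769). Creld2, Syvn1 and Dnajb9 had fold changes of -1.20, -0.97 and -0.91 with overlapping groups and did not pass.

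**Figure D3:**
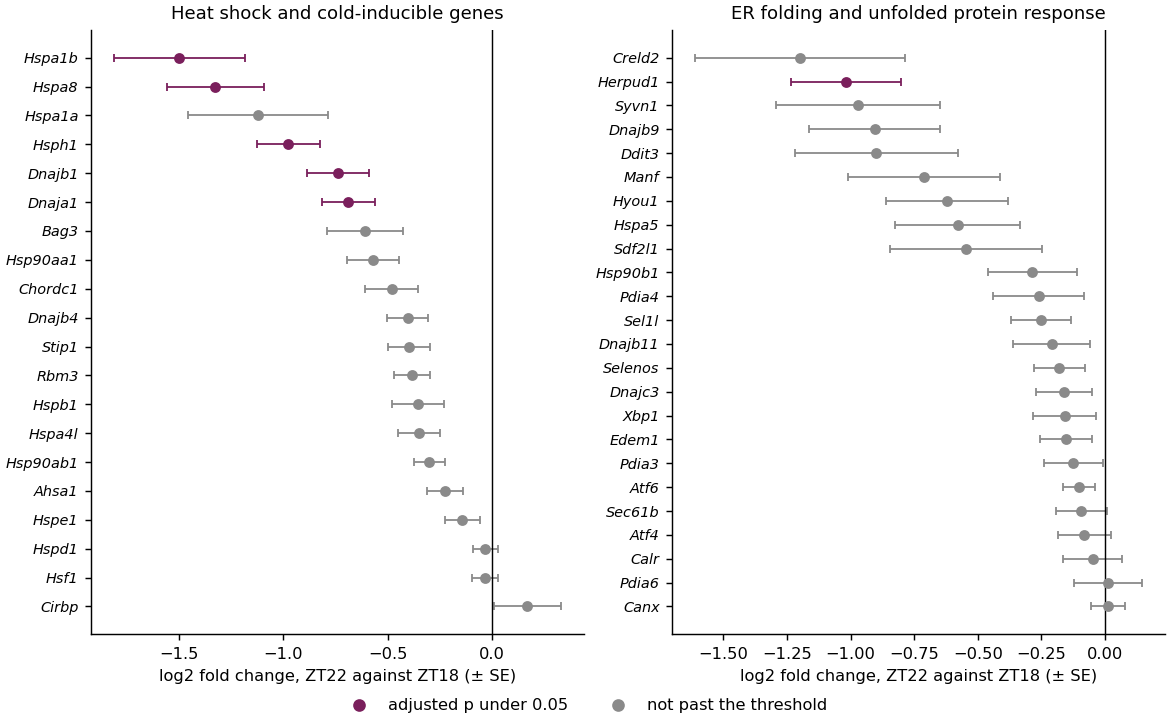
Points are log2 fold changes of ZT22 against ZT18 with bars of 1 SE for the 20 heat shock and cold-inducible genes (left) and the 24 endoplasmic reticulum genes (right), coloured where the adjusted p is under 0.05. All but Cirbp lie below 0 on the left, where 5 genes pass, and on the right only Herpud1 passes.

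Of 18 bile acid genes, 2 rose and none fell (11.1% against the 0.784% of all genes). The list did not move as a whole, with 11 positive and 7 negative fold changes and a median of 0.05. The 2 that rose encode a regulator and an exporter. Nr0b2, encoding the repressor SHP, was at 23.7, 19.0 and 28.9 CPM in WT and 23.1, 20.7 and 23.8 CPM in KO mice at ZT18. At ZT22 it was at 78.6, 48.4 and 49.8 CPM in WT and 42.9, 39.1 and 34.9 CPM in KO mice, with every library above every ZT18 library. It rose 2.07-fold (log2 fold change 1.05 ± 0.14, SE, edgeR, adjusted p = 0.00569). Abcb11, the bile salt export pump, rose 1.43-fold from 362-466 CPM to 537-680 CPM without overlap (edgeR, adjusted p = 0.00652).

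In glycogen metabolism 1 member of 11 rose and 1 fell (18.2% called, against the 0.784% of all genes). Gys2, the liver glycogen synthase, fell from 161-239 CPM (median 217) to 117-156 CPM (median 137), or -0.63 ± 0.10 (SE) on the log2 scale (edgeR, adjusted p = 0.00829). Ppp1r3c, a subunit that targets protein phosphatase 1 to glycogen, rose from 54.2-128 CPM (median 83.1) to 150-194 CPM (median 164), or 0.98 ± 0.16 (SE, edgeR, adjusted p = 0.0122). These 2 genes moved in opposite directions, each without overlap between the times.

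In the lipogenesis list 1 of 24 members rose (4.17% against the 0.784% of all genes), with a median of -0.09. This was Elovl3, an elongase of very long-chain fatty acids that also belongs to the male-biased list. It was at 127-438 CPM at ZT18, and at ZT22 at 915, 679 and 843 CPM in WT and 629, 266 and 707 CPM in KO mice (log2 fold change 1.47 ± 0.28, SE, edgeR, adjusted p = 0.0287). KO mouse b at ZT22 lay inside the ZT18 range. The call was lost with the estimated correlation (limma-voom, adjusted p = 0.0523) and stood in 4 of 12 fits without a single library. None of 24 cholesterol genes passed, although 21 had positive fold changes, 12 had an unadjusted p under 0.05 and the median was 0.31. Over all 17994 tested genes, 8771 had positive fold changes and 2410 an unadjusted p under 0.05 (edgeR). The highest of them was Hmgcs1, an early enzyme of the pathway, at 0.91 with overlapping groups (edgeR, adjusted p = 0.107). None of 30 genes of fatty acid oxidation and ketogenesis passed (median 0.00).

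Amino acid and one-carbon genes had 2 members each that rose, of 24 and 17 (8.33% and 11.8%, against the 0.784% of all genes). Agxt, which detoxifies glyoxylate, rose 1.48-fold from 152-172 CPM to 211-272 CPM (edgeR, adjusted p = 0.00552). Kynu, of tryptophan breakdown, rose 1.42-fold (edgeR, adjusted p = 0.0254), a call that stood in 6 of 12 fits without a single library. Cbs, which takes homocysteine into cysteine synthesis, rose 1.40-fold from 380-491 CPM to 521-668 CPM (edgeR, adjusted p = 0.00928). Each of these 3 had all ZT22 libraries above all ZT18 libraries. Bhmt, which remethylates homocysteine, rose 2.01-fold from 945-2567 CPM to 2301-4896 CPM (edgeR, adjusted p = 0.0328). It had overlap through WT mouse c at ZT18 and reads that may be shared with near-identical copies. The Bhmt call stood in 5 of 12 fits without a single library.

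Nampt, the rate-limiting enzyme of NAD salvage, fell from 95.7-115 CPM (median 103) to 54.8-80.5 CPM (median 63.3), a log2 fold change of -0.70 ± 0.09 (SE, edgeR, adjusted p = 0.00516). It was the only one of 19 heme and NAD genes to pass, and its groups did not overlap. Fga and Fgg, of the 3 fibrinogen genes, rose 1.43-fold and 1.32-fold (edgeR, adjusted p = 0.0206 and 0.0228), 2 of 25 tested members of the plasma protein list (8%). Their calls stood in 8 and 7 of 12 fits without a single library. Neither passed without letter a, b or c (edgeR, adjusted p from 0.105 to 0.31). Bnip3, a receptor for mitophagy, fell 1.38-fold (edgeR, adjusted p = 0.00865), 1 of 20 autophagy genes (5%). Ugt2b5, a glucuronosyltransferase, fell 1.28-fold (edgeR, adjusted p = 0.0404), 1 of 21 conjugation and antioxidant genes (4.76%). With the estimated correlation Ugt2b5 had a limma-voom adjusted p of 0.0535. Psmd11 rose 1.21-fold (edgeR, adjusted p = 0.0498), 1 of 26 proteasome subunits (3.85%). Its call was lost when DESeq2 size factors replaced TMM (edgeR, adjusted p = 0.0541) and with the estimated correlation (limma-voom, adjusted p = 0.0769).

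Cdkn1a, encoding the cell cycle inhibitor p21, rose 2.72-fold (edgeR, adjusted p = 0.0235). Its ZT18 levels were 8.03, 20.8 and 14.9 CPM in WT and 5.70, 7.17 and 7.91 CPM in KO mice, and its ZT22 levels 34.7, 22.0 and 28.3 CPM in WT and 16.3, 28.9 and 35.8 CPM in KO mice. WT mouse b at ZT18 lay above KO mouse a at ZT22. Sgk1, a kinase induced by glucocorticoids, rose 1.40-fold with overlap (edgeR, adjusted p = 0.0335). With Cdkn1a, 2 of 13 tested glucocorticoid-responsive genes rose (15.4% against the 0.784% of all genes). The list median was -0.03, and 7 of the 13 had negative fold changes. Neither Cdkn1a nor Sgk1 passed with the estimated correlation (limma-voom, adjusted p = 0.0676 and 0.0535). Sesn3, a sestrin, rose 1.31-fold without overlap (edgeR, adjusted p = 0.038). It was 1 of 21 insulin and feeding genes (4.76% against the 0.784% of all genes) and was lost with the estimated correlation (limma-voom, adjusted p = 0.0769).

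No member passed among 16 genes of glucose production and glycolysis, 12 of the urea cycle and ammonia handling, 20 of P450 and drug metabolism, 19 immediate early genes and 20 interferon-stimulated genes. The same held for 22 genes of ribosome biogenesis and translation, 28 cytosolic ribosomal proteins and 22 of oxidative phosphorylation. Beside these counts of 0 (edgeR), the numbers at an unadjusted p under 0.05 were 5, 3, 5, 3 and 2 for the first 5 lists and 0 for the other 3. Over all 17994 tested genes the number was 2410. Of the ribosomal protein genes, 27 of 28 had negative fold changes, none beyond -0.17, against 9223 negative of all 17994 genes.

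The times of highest and lowest mean of the genes past the threshold are given here only as a description. Of the 90 genes that rose, 55 had their highest mean of the 6 times at ZT2 and 26 at ZT22, and 46 had their lowest at ZT14. Of the 51 that fell, 29 had their highest mean at ZT14 and 17 at ZT10, and 26 had their lowest at ZT2. These counts use the same ZT18 and ZT22 libraries that picked the genes. A gene that rose could therefore hardly peak at ZT18, nor one that fell at ZT22. Counts of peak times over all tested genes are not given here, and the pattern was not tested. In the preceding step, which shares the ZT18 libraries, 36 of the 90 were called higher and none lower, and 23 of the 51 lower and none higher. Of all 17994 tested genes, that step called 379 higher and 345 lower. In the following step, which shares the ZT22 libraries, 7 of the 90 were called higher and none lower, and of the 51, 14 were lower and 1 (Nr1d2) higher. Of all 17994 tested genes, the following step called 74 higher and 123 lower. Arntl and Clock had near-equal means at ZT22 and ZT2, whereas Per3, Dbp and Ciart were lower still at ZT2.

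**Figure D4:**
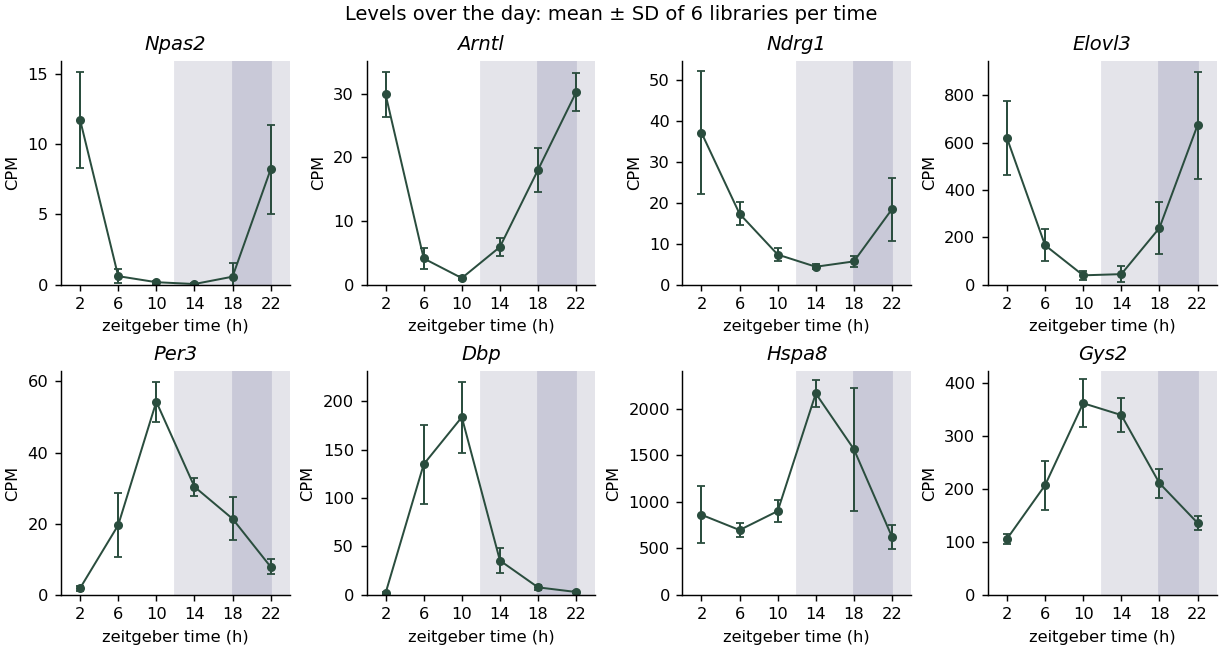
Each panel plots the mean CPM of 1 gene at 6 zeitgeber times with bars of 1 SD (6 libraries per time, both genotypes), the dark phase in grey and the ZT18 to ZT22 step in darker grey. Npas2, Arntl, Ndrg1 and Elovl3 climb through the step, while Per3, Dbp and Gys2 continue a fall from ZT10 and Hspa8 a fall from ZT14.

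The step was also fitted within each genotype and compared between them. All 141 genes had the same sign in THRB WT and THRB KO livers, as the pooled contrast favours. The interaction of genotype and time gave 0 genes past the threshold (edgeR, lowest adjusted p 0.99999), with 577 at an unadjusted p under 0.05, and DESeq2 gave 0, with 530. Within THRB WT 1 gene passed, Grk5, with a log2 fold change of 1.59 ± 0.16 (SE, edgeR, adjusted p = 0.0035). Within THRB KO livers 0 genes passed (edgeR, 1579 at an unadjusted p under 0.05, 116 with the DESeq2 Wald test). With 3 mice per group these within-genotype fits were less precise than the pooled one.

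Of the clock genes that passed in the pooled fit, Npas2 had the widest gap between genotypes, with log2 fold changes of 3.51 ± 0.82 (SE) in WT and 4.70 ± 0.96 (SE) in KO livers and no interaction past adjustment. Nr1d1 had -0.43 ± 0.30 (SE) in WT and -1.40 ± 0.30 (SE) in KO livers, an interaction that did not pass adjustment. Cdkn1a had 0.95 ± 0.32 (SE) in WT and 1.96 ± 0.33 (SE) in KO livers, which also did not pass. The lowest interaction p belonged to Gm8325, a predicted gene, with -2.44 ± 0.68 (SE) in WT and 2.50 ± 0.68 (SE) in KO livers. Its levels were 0.807, 6.02 and 5.30 CPM in WT and 0.736, 0.589 and 0.823 CPM in KO mice at ZT18. At ZT22 they were 0.697, 1.05 and 0.491 CPM in WT and 1.19, 6.24 and 4.79 CPM in KO mice. The a mice were low in every group, so the pattern rests on the b and c mice of 1 genotype at each time.

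The next 4 genes by interaction p had steps of opposite sign in the 2 genotypes and did not pass adjustment either. Nek8, a ciliary kinase, had 0.29 in WT and -0.52 in KO livers. Tpcn1, an endolysosomal cation channel, had -0.38 and 0.11, and Samhd1, a dNTPase, had -0.41 and 0.21. Bbc3, encoding the pro-apoptotic protein PUMA, had 0.63 in WT and -0.46 in KO livers.

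**Figure D5:**
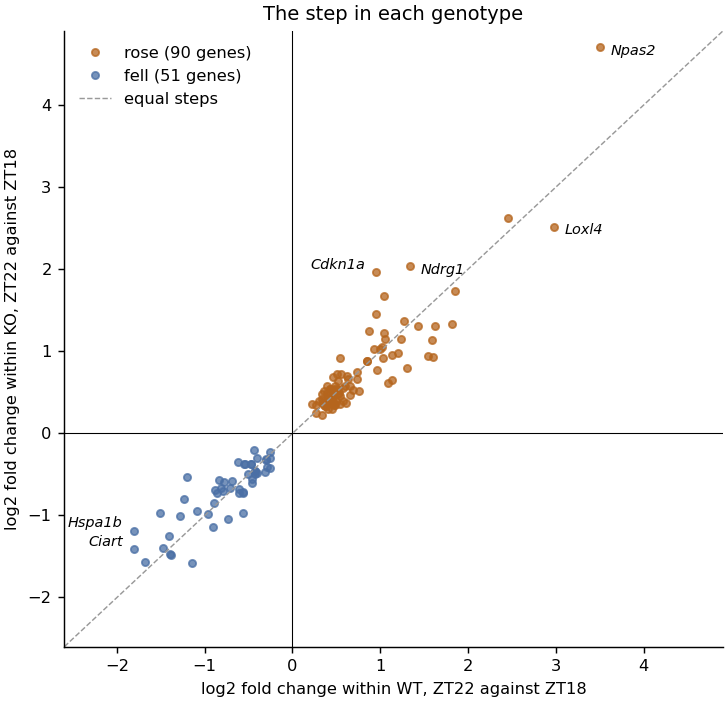
Each point is 1 of the 141 genes past the threshold, with its log2 fold change (ZT22 against ZT18) within THRB WT on the horizontal and within THRB KO on the vertical axis, and a dashed line of equal steps. All points lie at the upper right (90 genes) or lower left (51 genes) of the origin, and no interaction passed the threshold.

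Of 18 genes of thyroid hormone response, 1 rose and none fell (5.56% against the 0.784% of all genes), with a median of 0.02. It was Thra, encoding the other thyroid hormone receptor, which rose from 10.9-15.4 CPM to 16.4-21.5 CPM without overlap (log2 fold change 0.52 ± 0.10, SE, edgeR, adjusted p = 0.0263). The call stood in 6 of 12 fits without a single library. Without letter a, b or c Thra did not pass (edgeR, adjusted p = 0.110, 0.216 and 0.0781). It was lost with summed pairs (edgeR, adjusted p = 0.25) and kept with the estimated correlation (limma-voom, adjusted p = 0.0472). Thra overlaps Nr1d1 on the opposite strand, which had a negative fold change over the same step, and reads of the 2 genes cannot be told apart where they overlap. Thrb had a log2 fold change of 0.02 ± 0.05 (SE, edgeR, adjusted p = 0.915). Dio1, the deiodinase that responds to thyroid hormone in liver, was at 151, 112 and 75.8 CPM in WT and 67.9, 61.5 and 48.8 CPM in KO mice at ZT18. At ZT22 it was at 116, 83.3 and 62.1 CPM in WT and 58.3, 38.9 and 32.0 CPM in KO mice. In each group the a mouse was highest and the c mouse lowest, and the step was -0.42 ± 0.19 (SE, edgeR, adjusted p = 0.36). With the letter as a replicate block it was -0.43 and passed (edgeR, adjusted p = 0.0092).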

How the data were processed

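RNA of 36 livers was sequenced by the authors as poly(A)-selected, paired-end libraries without strand information. Per the labels and the study's methods, reads were mapped to GRCm38 (mm10) with HISAT2 and counted per gene with featureCounts, for which versions, annotation release and handling of multiply mapped reads are not given in the sources used here. The deposited values are raw read counts per gene for 54532 genes, without normalization. The deposited table also lists gene lengths in bases from the authors' annotation (recorded as a score), which entered no test. Only genes whose counts summed to 100 or more across all 36 libraries were tested.

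Counts of the 12 libraries at ZT18 and ZT22 were normalized by TMM and tested with edgeR 4.0.16 (quasi-likelihood F test, limma 3.58.1, R 4.3.3) with genotype as covariate, and with an interaction term for the difference between genotypes. Benjamini-Hochberg adjustment ran over 17994 genes, and the threshold was 0.05. CPM use TMM library sizes over all 36 libraries. The alternatives were the Wald test of DESeq2 1.42.0, DESeq2 size factors in edgeR, no or a stricter filter, all 36 libraries in the fit, a replicate block, and leaving out mice by letter or singly. Scripts were tested on simulated data. Depth limits precision for genes near 1 CPM, at about 30 counts per library.

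The members and lists were chosen with earlier results of these data known. Named genes were all members of the 4 clock lists, and the 10 largest rises and 10 largest falls among genes past the threshold with a mean of at least 50 counts and ranges that do not overlap. Of each other list, up to 4 members with the lowest adjusted p were named, or the 2 with the highest mean CPM where none passed, of which only some are printed, and a few genes are not reported here. The 5 genes with the lowest interaction p among those with a mean of at least 50 counts, and Thrb, Thra and Dio1, were added. Other genes of the heat shock, endoplasmic reticulum and cholesterol lists were named after their values were seen. Replicates are separate mice. Promoter sequences are RefSeq's (GRCm38.p6), cut and searched with Python 3.11.15.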

Additional observations from a re-analysis of the deposited data

Results flagged for a closer look

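In 10 of 194 groups of 6 libraries (97 genes at 2 times, 5.15%) 1 library lay far from the other 5, where chance gives about 1 in 20. Npas2 was at 2.50 CPM in WT mouse c at ZT18, against 0.0271-0.360 CPM in the others, and at 2.79 CPM in KO mouse a at ZT22, against 7.10-11.3 CPM. Arntl2 was at 0.676 CPM in KO mouse c at ZT18, against 0.132-0.229 CPM. Per3 was at 3.89 CPM in WT mouse c at ZT22, against 7.69-10.1 CPM. In the same mouse Lonrf3 was at 0.818 CPM, against 1.68-2.17 CPM. Tef was at 88.0 CPM in WT mouse c at ZT18, against 117-135 CPM.

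Gm36041 was at 4.09 CPM in KO mouse a at ZT22, against 5.46-6.20 CPM in the others. KO mouse b at ZT22 held Elovl3 at 266 CPM, against 629-915 CPM, and Jund at 32.7 CPM, against 35.6-36.6 CPM. Eef1a1 was at 3399 CPM in KO mouse c at ZT22, against 3638-3783 CPM. WT mouse c at ZT18 also had the lowest Per3, Dbp, Ciart, Nr1d2 and Tef of its time, and what sets it apart was not tested.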

How the results depend on the processing

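The 141 genes became 534 with the DESeq2 Wald test (316 higher, 218 lower), 318 without a filter on low counts and 317 with all 36 libraries in the fit (116 of the 141 among them), and the causes were not tested. DESeq2 size factors gave 134 and edgeR's filterByExpr 143. Leaving out mice gave 0 to 181. Summed WT and KO pairs gave 3 and correlated pairs 75, against 152 in limma-voom without the correlation. Within THRB WT the 1 gene became 102 with the Wald test, 89 without the filter and 4 with all 36 libraries, and 0 to 21 without mice of 1 letter. Within THRB KO livers the 0 became 116, 106 and 10, and 0 to 1. The interaction gave 1 gene without the filter and 0 to 1 without mice of 1 letter.

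With a replicate block by letter the 141 became 312, including all 141, and 26 genes passed within THRB WT and 28 within THRB KO livers, with none in the interaction. Same-letter mice of 1 genotype at the 2 times had correlations of -0.226 to 0.274, and 7 of 12 libraries correlated best with their own letter. Within a time, 12 of 12 libraries correlated best with the same letter of the other genotype. The labels also give same-letter mice of ZT18 and ZT22 animal numbers close together. These values do not settle whether the letters pair ZT18 with ZT22 mice. The main fit had no block by letter because the study's methods name none. Of the 97 named genes none changed sign past the threshold under any setting. Of the 48 past the threshold, 26 stayed past it without any 1 library, 15 without letter a, 0 without letter b and 28 without letter c, 2 with summed pairs (Wee1 and Grk5) and 34 with correlated pairs. Those lost with correlated pairs were Clock, Usp2, Loxl4, Hectd2os, Hspa1b, Dnajb1, Ung, Herpud1, Elovl3, Sesn3, Cdkn1a, Sgk1, Ugt2b5 and Psmd11. Leaving out 1 library lost between 3 of the 48 (WT mouse c at ZT18) and 22 (KO mouse a at ZT18). Among these 22 were Clock, Per2, Usp2, Rnf125, Hspa1b, Hspa8, Ung, Elovl3, Ppp1r3c, Sesn3 and Cdkn1a. The others were Sgk1, Dnaja1, Dnajb1, Herpud1, Thra, Kynu, Bhmt, Ugt2b5, Fga, Fgg and Psmd11. The replicate block gained Per1, Por and Dio1. With all 36 libraries in the fit Clock, Usp2, Noct, Nr0b2, Sgk1 and Bhmt were lost, and Nr1d1 and Por gained. Changes of genes near 1 CPM are the least precise.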

Other observations

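Several genes outside the lists and the naming rule passed the test and were picked after their values were seen. Nmrk1, a nicotinamide riboside kinase of NAD synthesis, fell from a mean of 48.6 to 31.1 CPM (log2 fold change -0.64, edgeR, adjusted p = 0.00312), the same direction as Nampt. Mcu, encoding the pore of the mitochondrial calcium uniporter, rose by 0.63 on the log2 scale (edgeR, adjusted p = 0.00667). Clpx, the unfoldase of a mitochondrial protease, rose from 137 to 281 CPM (log2 fold change 1.04, edgeR, adjusted p = 0.00552). For each of these 3 genes no ZT22 library reached the range of the ZT18 libraries.

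A pair of collagen prolyl hydroxylase genes fell, P4ha1 by 0.69 and P4ha2 by 0.50 on the log2 scale (edgeR, adjusted p = 0.0483 and 0.0472). Insig2, which retains the sterol sensor SCAP, rose from 143 to 258 CPM (log2 fold change 0.85, edgeR, adjusted p = 0.0303), with overlap. Amdhd1, of histidine breakdown, and Amt, of glycine cleavage, rose by 0.58 and 0.49 (edgeR, adjusted p = 0.0272 and 0.0456). Serpinf2, encoding the plasmin inhibitor antiplasmin, rose by 0.40 (edgeR, adjusted p = 0.0122), beside the fibrinogen genes Fga and Fgg. The Bhmt copies Bhmt-ps1 and Gm5096 rose from means of 2.05 and 160 CPM to 4.55 and 340 CPM (edgeR, adjusted p = 0.0306 for both), beside Bhmt, and reads of the 3 genes may be shared.

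Further co-chaperone genes outside the heat shock list fell, Dnajb6 by 0.25 and Ahsa2 by 0.44 on the log2 scale (edgeR, adjusted p = 0.0439 and 0.0149), each without overlap. Coq10b fell by 0.75 and the kinase gene Pim3 by 0.65 (edgeR, adjusted p = 0.0117 and 0.0218). On the first principal component (23.1% of the variance of the 12 libraries), KO mouse b at ZT22 (28.6) and WT mouse a at ZT18 (-20.9) lay at the ends.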
